A study of Homo sapiens with 15 samples.

Results

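Crystallins and small heat shock proteins were followed through a human Müller glia differentiation series by 10 genes picked by symbol, out of 19684 genes in the count tables. They are 6 crystallin genes (CRYAB, CRYAA, CRYBA1, CRYBB1, CRYBB2 and CRYGS) and 4 genes of the HSPB family (HSPB1, HSPB2, HSPB6 and HSPB8), and all 10 are listed for every library. The genes were picked with the values of these same libraries known, so their levels and differences are a description, and no p-value is given for any of them.

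Small heat shock proteins are ATP-independent chaperones that hold partly unfolded proteins in a soluble state until ATP-driven chaperones refold them or they are degraded. The alpha crystallins encoded by CRYAA and CRYAB belong to this family. CRYAA is largely a lens gene, whereas CRYAB and HSPB1 are also made in glia, muscle and many other cells and are induced by stress. Beta and gamma crystallins form a separate family of structural lens proteins, some of which are also made in the retina, and Müller glia are the radial glia that support retinal neurons.

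Poly(A) RNA was sequenced from 15 libraries in 5 groups of 3, all of them from the BC1-GFP human induced pluripotent stem cell (hiPSC) line, which is labelled wild type and carries a GFP reporter. The groups were undifferentiated hiPSCs, neural retina (NR) layers of retinal organoids (ROs) at day 70 (D70-RO) and at day 150 (D150-RO), and induced Müller glial cells (iMGCs) that grew out of dissociated D150-RO layers and were taken on day 5 of passage 1 (P1 iMGC) or passage 5 (P5 iMGC). The organoid libraries pool several organoids with mixed retinal cell types, and the medium supplement B27 was replaced by N2 between the D70 and D150 stages. The iMGCs grew attached in another medium, and both the organoid and the iMGC medium held fetal bovine serum. Stage, culture form and medium therefore change together. The methods give 3 independent experiments per group, while the deposited series text gives 2 for hiPSCs and ROs, so the spread between libraries may partly be technical.

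Expected counts, which are RSEM's estimates of the reads from each gene, summed to between 11349600 and 20398755 per library, and D70-RO replicate 2 was the shallowest. Levels are given as FPKM, which are fragments scaled to transcript length and to the mapped fragments of the library and can be compared between genes. The FPKM of all genes summed to between 387551 and 570482 per library and was lowest in D150-ROs. Sums and ratios of FPKM between groups carry this difference. As a check of the labels, 5 pluripotency genes summed to 3161 to 3344 FPKM in hiPSCs, and 9 photoreceptor genes summed to 987 to 1090 FPKM in D150-ROs. Of 10 Müller glia markers, AQP4, CA2 and RLBP1 had no count in P1 iMGCs and KCNJ10 had 3, and these 4 genes had 0, 7, 1 and 1 counts in P5 iMGCs. From D150-ROs to P1 iMGCs the mean FPKM of GLUL went from 100.2 to 13.4, of SOX9 from 42.6 to 5.21 and of SLC1A3 from 28.0 to 0.37. VIM, an intermediate filament gene that many cultured cells also express, went from 1065 to 2160. APOE went from 13.6 to 37.2, and DKK3 had 273 in D150-ROs, 246 in P1 iMGCs and 390 in P5 iMGCs. In bulk RNA, fewer cells of a type and less RNA per cell cannot be told apart, and this applies to every level below.

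CRYAB, the stress-inducible alpha crystallin, was the one gene of the 10 whose mean level was higher at each step from hiPSCs through both organoid ages to P1 and P5 iMGCs. Its FPKM was 0.31, 2.38 and 0.98 in the 3 hiPSC libraries. D70-ROs had 4.02, 4.33 and 3.33, and D150-ROs had 10.2, 12.3 and 10.2. It was 30.1, 27.8 and 32.7 in P1 iMGCs and 128, 132 and 141 in P5 iMGCs. No 2 neighbouring groups overlapped. Such separation was common among tested genes, at 75.5% in D70-ROs against hiPSCs, 77.2% in D150-ROs against D70-ROs, 87.4% in D150-ROs against hiPSCs, 87.9% in P1 iMGCs against D150-ROs and 39.5% in P5 against P1 iMGCs. The mean of P5 iMGCs (134 ± 6.58 FPKM, SD, n = 3) was 12.2 times that of D150-ROs (10.9 ± 1.21), while the 2 fitted steps given below multiply to 18.6-fold. Ranked by mean FPKM among all 19684 genes, CRYAB moved from place 11743 in hiPSCs to 9871 in D70-ROs, 7231 in D150-ROs, 2142 in P1 iMGCs and 373 in P5 iMGCs.

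Differences between groups were fitted with edgeR on the expected counts, and a gene was called higher or lower at an adjusted p under 0.05 with a change of at least 2-fold. CRYAB was called higher in all 5 comparisons. Its log2 fold change was 1.95 (SE 0.39) in D70-ROs against hiPSCs, 1.30 (SE 0.19) in D150-ROs against D70-ROs, and 3.25 (SE 0.31) in D150-ROs against hiPSCs. The step out of the organoid, P1 iMGCs against D150-ROs, had a log2 fold change of 2.08 (SE 0.10), and the step from P1 to P5 one of 2.14 (SE 0.06), or 4.41-fold. These comparisons share libraries (D70-RO, D150-RO, hiPSC and P1 iMGC each serve in more than one), so the values are set side by side and are not independent of each other. By fold change CRYAB stood in place 32 among the 221 genes called higher in P5 iMGCs.

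The hiPSC level of CRYAB is the least firm of these, since it rests on 6, 22 and 19 counts, and FPKM divided by counts scaled to library size varied from 1.04 to 2.05 there, against 1.11 to 1.24 in the other groups. CRYAB is annotated at chr11:111908565-111923722 on the minus strand (GENCODE 29, GRCh38), and HSPB2, on the plus strand at chr11:111912242-111914093, lies wholly inside those bounds. Strand-specific counting is not stated, so reads from stretches where the transcripts overlap cannot be assigned to one of them with certainty. HSPB2, which is mainly a muscle small heat shock protein, stayed at or under 0.48 FPKM in every library while its neighbour changed.

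**Figure D1:**
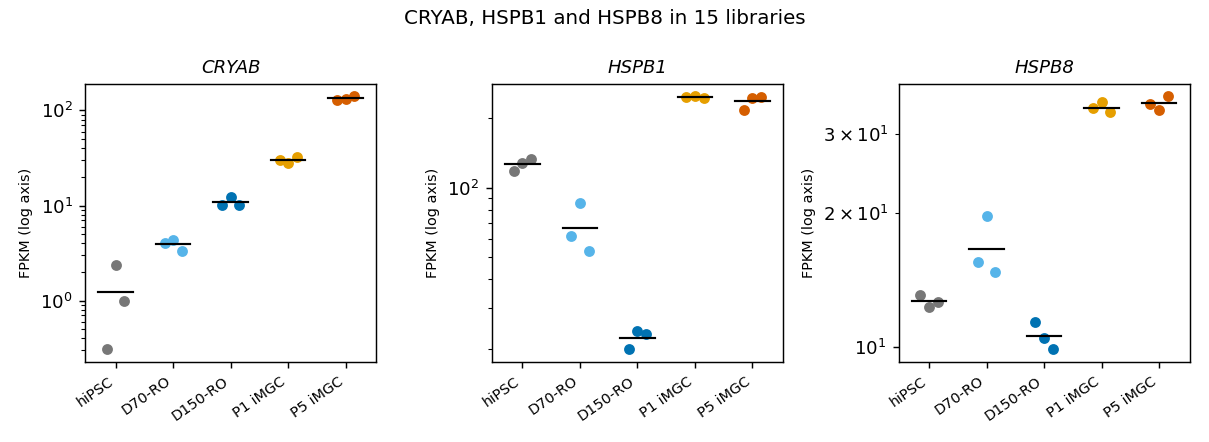
FPKM of CRYAB, HSPB1 and HSPB8 in each of the 15 libraries on log axes, with points for libraries and a line for the mean of each group of 3. CRYAB is higher in every next group from 0.31 to 2.38 FPKM in hiPSCs to 128 to 141 in P5 iMGCs, while HSPB1 and HSPB8 are lowest in D150-ROs and do not separate P1 from P5 iMGCs.

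HSPB1, the small heat shock protein HSP27 that also binds the actin cytoskeleton, was the most abundant of the 10 genes in all 15 libraries. It had a trough in the organoids instead of a steady climb. The hiPSC libraries had 118, 128 and 132 FPKM, the D70-RO libraries 61.4, 85.7 and 52.9, and the D150-RO libraries 19.9, 23.8 and 23.1. The level was 247, 249 and 244 in P1 iMGCs and 218, 246 and 248 in P5 iMGCs. The hiPSC, D70-RO and D150-RO ranges lay apart from each other and below the iMGCs, and the P1 and P5 ranges overlapped.

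The fitted log2 fold change of HSPB1 was −1.80 (SE 0.19) in D150-ROs against D70-ROs and −2.82 (SE 0.10) in D150-ROs against hiPSCs, both called lower. In P1 iMGCs against D150-ROs it was 4.12 (SE 0.06), or 17.4-fold, called higher. P1 iMGCs also lay above hiPSCs, with a mean of 247 ± 2.52 FPKM against 126 ± 7.38, a ratio of 1.95 between the means. P5 against P1 iMGCs gave 0.01 (SE 0.05), which was not called. D70-ROs against hiPSCs was called lower at −1.02 (SE 0.18), but that call sits at the 2-fold limit and ended with upper-quartile scaling (−0.92), with limma on log2(FPKM + 1) (−0.94) or log2(FPKM + 0.1) (−0.95), and without D70-RO replicate 1 (−0.85) or replicate 3 (−0.78).

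HSPB8, which works with the co-chaperone BAG3 to send misfolded proteins to autophagy, moved over a narrower range. The hiPSC libraries had 13.1, 12.3 and 12.6 FPKM, the D70-RO libraries 15.5, 19.6 and 14.7, and the D150-RO libraries 11.4, 10.5 and 9.90. The level was 34.2, 35.4 and 33.5 in P1 iMGCs and 35.1, 33.9 and 36.4 in P5 iMGCs. The iMGC libraries all lay above the organoid and hiPSC libraries and did not separate by passage.

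Only P1 iMGCs against D150-ROs was called for HSPB8 (log2 fold change 2.34, SE 0.07). The other 4 differences were under 2-fold, at 0.25 (SE 0.15) for D70-ROs against hiPSCs, −0.87 (SE 0.15) for D150-ROs against D70-ROs, −0.62 (SE 0.11) for D150-ROs against hiPSCs and 0.09 (SE 0.05) for P5 against P1 iMGCs. P1 iMGCs had 2.71 times the mean FPKM of hiPSCs. With limma on log2(FPKM + 1), which moved the median of all genes by −0.58 in P1 iMGCs against D150-ROs, the changes of CRYAB, HSPB1 and HSPB8 there were 1.39, 3.42 and 1.61, all still called. HSPB1 was 9.04 to 10.5 times as abundant as HSPB8 in hiPSC libraries, 1.75 to 2.34 times in D150-ROs and 6.22 to 7.29 times over the 6 iMGC libraries.

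HSPB6, a small heat shock protein of muscle, was near the detection limit. The hiPSC libraries had 0.92, 1.03 and 0.44 FPKM, the D70-RO libraries 0.07, 0 and 0.23, and the D150-RO libraries 0.27, 0.38 and 0.21. The level was 1.33, 1.08 and 1.56 in P1 iMGCs and 0.19, 0.16 and 0.27 in P5 iMGCs. P1 iMGCs therefore stood above every other group, with no overlap. HSPB6 was called higher in P1 iMGCs against D150-ROs (log2 fold change 2.84, SE 0.35) and lower in P5 against P1 iMGCs (−2.60, SE 0.37), and it passed the filter of 1 FPKM in 3 libraries only through the P1 libraries. With limma on log2(FPKM + 1) these changes were 0.85 and −0.94, under the 2-fold limit.

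HSPB2 never reached the filter. The hiPSC libraries had 0.07, 0.28 and 0.48 FPKM, the D70-RO libraries 0, 0.13 and 0.04, and the D150-RO libraries 0, 0 and 0.05. The level was 0, 0 and 0.09 in P1 iMGCs and 0.13, 0.26 and 0.15 in P5 iMGCs. The P5 libraries were the only iMGC or organoid group with a count in each library, with 12 counts in all against 2 in P1 iMGCs, a ratio of 6.27 with a 95% counting interval of 1.40 to 57.7. This interval covers counting error only.

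**Figure D2:**
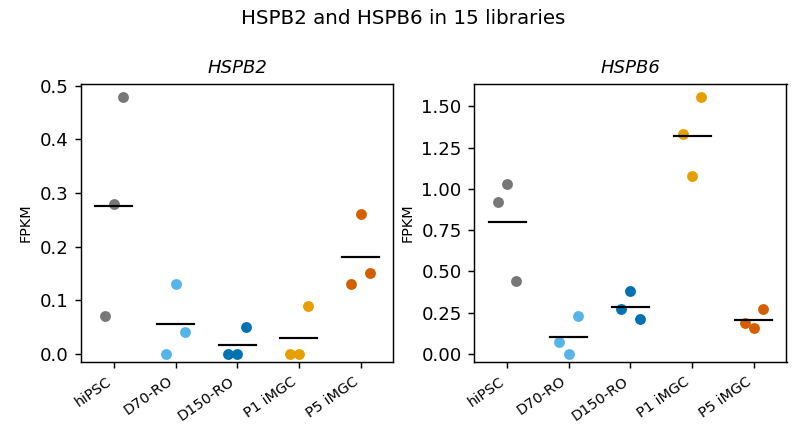
FPKM of HSPB2 and HSPB6 in each of the 15 libraries on linear axes, with points for libraries and a line for each group mean. HSPB6 is above 1 FPKM in all 3 P1 iMGC libraries and in 1 hiPSC library, and HSPB2 stays at or under 0.48 FPKM throughout.

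Markers of other cell types differed between organoids and iMGCs as well. Summed FPKM of 8 mesenchymal markers was 23.6 to 28.5 in D150-ROs, 2307 to 2407 in P1 iMGCs and 2624 to 2889 in P5 iMGCs, led by COL1A1. For 10 smooth and striated muscle markers the sums were 12.2 to 14.3, 2421 to 2635 and 2190 to 2222, led by TAGLN, and the skeletal muscle factor MYOD1 had no count in either iMGC group. All 8 mesenchymal markers had a mean of at least 1 FPKM in P1 iMGCs and 7 did in P5, against 6 and 5 of the muscle markers. HSPB1 and HSPB8 were higher in iMGCs than in D150-ROs as these sums were, HSPB2 had 1 and 2 counts in D150-ROs and P1 iMGCs, and HSPB6 was lower in P5 than in P1 iMGCs. The part of these other cell states in the levels was not tested.

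The 5 lens crystallins behaved alike in one respect, which is that each was highest in D70-ROs, and D70-RO libraries lay above all other libraries for every one of them. CRYBA1, a beta crystallin, had 26.6, 11.7 and 29.3 FPKM in D70-ROs, 0.66, 1.88 and 0.39 in D150-ROs, and 0.06, 0 and 0 in hiPSCs. CRYBB1, another beta crystallin, had 26.3, 14.1 and 18.5 FPKM in D70-ROs, 1.87, 3.12 and 0.52 in D150-ROs, and 5.54, 5.77 and 5.75 in hiPSCs. Neither gene had a count in any of the 6 iMGC libraries. D70-RO replicate 2 was the lowest D70 library for CRYBA1, CRYBB1 and CRYGS and the D70 library with the most HSPB1.

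CRYBB2, a beta crystallin, had 5.95, 5.07 and 4.25 FPKM in D70-ROs, 1.68, 1.45 and 0.62 in D150-ROs, and 1.85, 2.21 and 0.94 in hiPSCs. It kept a trace in iMGCs, at 0.35, 0.55 and 0.13 in P1 and 0.77, 0.85 and 0.22 in P5, and its hiPSC, D150-RO and iMGC ranges overlapped from neighbour to neighbour. CRYGS, the gamma-S crystallin, had 5.50, 4.35 and 5.94 FPKM in D70-ROs, 1.19, 0.73 and 0.86 in D150-ROs, and 0.07, 0.14 and 0.26 in hiPSCs. Its iMGC values were 0.41, 0.27 and 0.60 in P1 and 0.52, 0.15 and 0.52 in P5, below D150-ROs. The gene models of CRYGS and its neighbour TBCCD1 overlap on the same strand, so part of such low values cannot be placed with certainty.

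CRYAA, the lens alpha crystallin, had 6.66, 4.77 and 3.99 FPKM in D70-ROs, 0.32, 1.18 and 0.37 in D150-ROs, 0, 0 and 0.20 in hiPSCs, and no count in iMGCs. These values leave out the reads given to CRYAA2, a near-copy described below. Each of the 5 lens crystallins was called higher in D70-ROs against hiPSCs, where 22.5% of all tested genes were called higher. All but CRYBB1 passed the filter only with the D70-RO libraries, in which they were high, so nothing is read from this count. The log2 fold changes were 4.92 (SE 0.41) for CRYGS, 1.64 (SE 0.22) for CRYBB1 and 1.47 (SE 0.32) for CRYBB2. CRYAA and CRYBA1 had 3 counts or fewer in hiPSCs, and their ratios were 80.9 (95% counting interval 27.3 to 395) and 1015 (182 to 40145). CRYBB1 and CRYBB2 thus differed from the others in their starting level, with 354 and 87 counts in hiPSCs.

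All 5 lens crystallins were called lower in D150-ROs against D70-ROs, where 16.7% of all tested genes were called lower. None of the 5 reached 1 FPKM in all 3 D150-RO libraries. Each thus passed the filter only with the D70-RO libraries, in which it was high, and nothing is read from this count. The log2 fold change was −4.74 (SE 0.50) for CRYBA1, −3.64 (SE 0.45) for CRYBB1, −2.93 (SE 0.48) for CRYAA, −2.71 (SE 0.28) for CRYGS and −2.25 (SE 0.34) for CRYBB2. Without D150-RO replicate 2, the highest D150 library for CRYAA, CRYBA1 and CRYBB1, these 3 were at −3.86, −5.60 and −4.23. CRYBB1 ended below its hiPSC level, with −1.999 (SE 0.37) in D150-ROs against hiPSCs, called lower (−1.37 without D150-RO replicate 3). CRYBB1 passed the filter there only with the hiPSC libraries, in which it was high, so nothing is read from this call. CRYBB2 was not called there (−0.77, SE 0.41), although without hiPSC replicate 3 it was (−1.19). In P1 iMGCs none of the 5 reached the filter, and the 0 counts of CRYBB1, CRYBA1 and CRYAA put them at least 20.4-fold, 8.21-fold and 7.32-fold lower than D150-ROs, taking 3 counts over the group as the limit. CRYBB2 went from 53 counts in D150-ROs to 15 in P1 iMGCs, and CRYGS from 35 to 17.

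**Figure D3:**
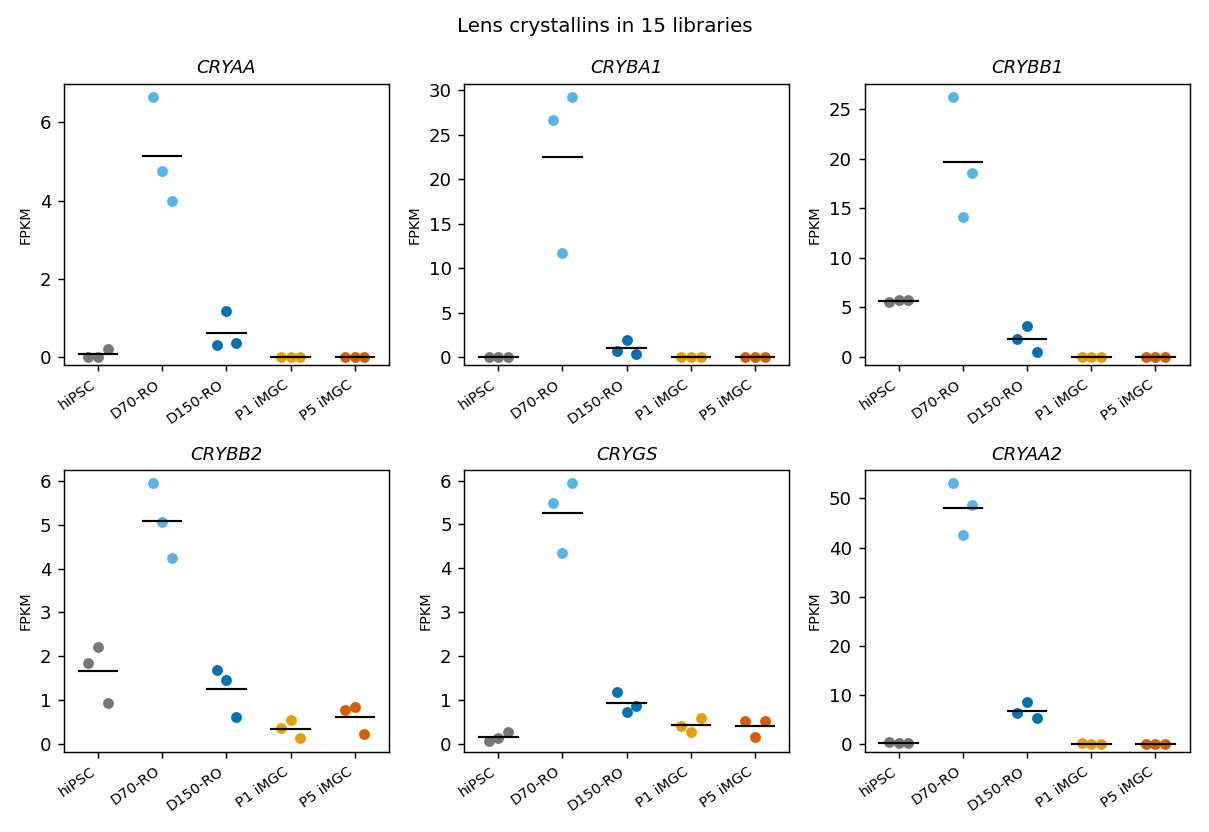
FPKM of the 5 lens crystallins and of CRYAA2, a near-copy of CRYAA, in each of the 15 libraries on linear axes, with points for libraries and a line for each group mean. All 3 D70-RO points lie above every other point in all 6 panels, and CRYAA, CRYBA1 and CRYBB1 are at 0 in the iMGCs.

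At D70, genes that mark lens cells were lower than the 5 lens crystallins, whose summed FPKM was 40.0 to 71.0 in D70-ROs, 2.76 to 8.36 in D150-ROs, 0.73 to 0.82 in P1 iMGCs and 0.74 to 1.29 in P5 iMGCs. Summed over 10 lens markers, FPKM reached 1.77 to 2.16 in hiPSCs, 6.34 to 9.23 in D70-ROs, 2.96 to 3.21 at the D150 stage, 1.48 to 2.42 in P1 iMGCs and 1.33 to 1.99 in P5 iMGCs. These sums overlapped with the crystallins at D150 and lay above them in iMGCs. The D70 value was led by LIM2, a lens fibre membrane gene, at a mean of 3.85 FPKM, and 2 of the 10 markers had a mean of at least 1 FPKM there. LIM2 had means of 0 in hiPSCs, 0.40 in D150-ROs and 0 in P1 and P5 iMGCs. The other, BFSP1, had means of 1.63, 2.08, 1.98, 1.51 and 1.25 FPKM in hiPSCs, D70-ROs, D150-ROs, P1 and P5 iMGCs, and led the sum outside D70-ROs. Markers of pigment epithelium summed to 120 to 138 FPKM in hiPSCs, 100.7 to 158 at D70 and 37.4 to 43.3 at D150. The hiPSC and D70 sums were led by PMEL, with means of 127, 102 and 1.29 FPKM in the same order. Among the others, DCT had means of 15.3 FPKM at D70 and 12.75 at D150, with overlapping ranges, and TYR had 41 and 0 counts. TTR (4.28 at D70 and 21.8 at D150) and BEST1 (1.51 and 2.87) were higher at D150. MITF had a higher mean there (1.07 and 1.51), with overlapping ranges, and the rest were scarcely detected at either stage. The part of lens or pigment cells in the D70 crystallin levels was not tested.

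The level of CRYAA depends on how reads are shared with CRYAA2, a second annotated copy that the tables list separately. The nearest coding gene is U2AF1 for CRYAA, at 61421 bases, and U2AF1L5 for CRYAA2, at 61453 bases. Whether these entries are separate genes was not tested, so the CRYAA values above may hold only part of its reads. CRYAA is annotated at chr21:43169008-43172805 and CRYAA2 at chr21:6560714-6564489, both on the plus strand (GRCh38). Their coding sequences are both 522 bases long and 99.8% identical, with a single substitution, C6T, counted from the A of the start codon with the CRYAA base first. The first 35 coding bases are shown because they hold that only difference, in capitals.
CRYAA: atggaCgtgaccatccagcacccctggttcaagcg
CRYAA2: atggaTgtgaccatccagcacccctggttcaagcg
CRYAA2 had 53.1, 42.6 and 48.6 FPKM at D70 and 6.38, 8.48 and 5.32 at D150. Of the counts given to the pair, CRYAA received between 5.85% and 8.80% at D70 and between 3.54% and 12.9% at D150. The split between the copies is uncertain. CRYAA2 on its own had a log2 fold change of 7.75 (SE 0.26) in D70-ROs against hiPSCs and −3.08 (SE 0.17) in D150-ROs against D70-ROs, in the same directions as CRYAA.

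Promoter sequences were available for 8 of the 10 genes, from RefSeq on GRCh38.p14, and not for CRYAB or HSPB2. The stretches below are the 250 bases upstream of the start of 3 lens crystallins and 2 small heat shock proteins, and they are shown for members that peaked in D70-ROs beside members that were highest in iMGCs. Capitals mark 4 motifs on either strand: TGCTGA, which is 1 arm of the element bound by large Maf factors, TATAAA, and the inverted repeats GAANNTTC and TTCNNGAA, which are the core of the heat shock element.
CRYBA1, chr17:29246609-29246858, plus strand: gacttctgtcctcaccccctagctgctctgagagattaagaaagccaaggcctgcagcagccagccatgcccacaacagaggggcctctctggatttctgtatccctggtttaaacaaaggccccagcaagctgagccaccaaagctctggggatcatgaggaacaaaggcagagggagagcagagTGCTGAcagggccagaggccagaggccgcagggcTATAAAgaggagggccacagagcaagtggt
CRYBB1, chr22:26618028-26618277, minus strand: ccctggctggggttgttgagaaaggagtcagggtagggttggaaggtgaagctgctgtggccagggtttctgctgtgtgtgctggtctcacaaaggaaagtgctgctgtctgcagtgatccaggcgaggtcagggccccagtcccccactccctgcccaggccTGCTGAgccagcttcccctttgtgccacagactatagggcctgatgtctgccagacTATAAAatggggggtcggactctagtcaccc
CRYAA, chr21:43168758-43169007, plus strand: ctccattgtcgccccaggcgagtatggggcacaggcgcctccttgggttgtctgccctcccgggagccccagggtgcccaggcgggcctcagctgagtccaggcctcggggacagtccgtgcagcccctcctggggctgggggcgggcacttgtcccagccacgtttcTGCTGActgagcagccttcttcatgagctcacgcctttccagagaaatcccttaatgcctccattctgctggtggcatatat
HSPB1, chr7:76302423-76302672, plus strand: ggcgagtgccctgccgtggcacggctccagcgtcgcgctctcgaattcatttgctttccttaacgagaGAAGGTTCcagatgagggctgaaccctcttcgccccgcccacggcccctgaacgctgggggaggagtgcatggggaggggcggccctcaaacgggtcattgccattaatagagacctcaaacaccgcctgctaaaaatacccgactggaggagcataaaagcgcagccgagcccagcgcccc
HSPB8, chr12:119178681-119178930, plus strand: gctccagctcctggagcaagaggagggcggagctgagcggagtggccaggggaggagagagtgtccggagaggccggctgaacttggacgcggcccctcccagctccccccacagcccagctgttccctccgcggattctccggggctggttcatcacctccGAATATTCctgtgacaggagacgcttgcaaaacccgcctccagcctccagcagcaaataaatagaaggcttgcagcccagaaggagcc
TGCTGA was found in all 5 lens crystallin promoters and in none of HSPB1, HSPB6 and HSPB8, against 14% of all 35116 promoters of this length. GAANNTTC was found in HSPB1, HSPB6 and HSPB8 and in none of the 5 lens crystallins, against 5.78% of all promoters. TTCNNGAA was in CRYGS and HSPB6 (6.62% of all promoters), and TATAAA in CRYBA1, CRYBB1, CRYBB2, CRYGS and HSPB6 (10.7%). The motifs were chosen after the expression values had been seen, and a match describes letters and not a bound site.

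In D70-ROs against hiPSCs 8 of the 10 genes passed the filter, 6 were called higher and 1 lower, where 22.5% of 12954 tested genes were called higher and 21.1% lower (43.5% in either direction). In D150-ROs against D70-ROs 1 of 8 was called higher and 6 lower, against 16.6% and 16.7% of 12855 genes (33.3% in either direction). In D150-ROs against hiPSCs 1 of 5 was called higher and 2 lower, against 29.8% and 29.0% of 13344 genes (58.8% in either direction).

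In P1 iMGCs against D150-ROs 4 of 4 were called higher, where 20.0% of 12896 genes were called higher and 24.1% lower (44.1% in either direction). In P5 against P1 iMGCs 1 of 4 was called higher (CRYAB) and 1 lower (HSPB6), where only 1.94% of 11366 genes were called higher and 0.977% lower (2.92% in either direction). Several members passed the filter through the group in which they were high, so nothing is read from these counts. The count for D70-ROs against hiPSCs fell from 7 called to 3 without D70-RO replicate 1, 4 without replicate 2 and 3 without replicate 3, because CRYAA, CRYBA1 and CRYGS then miss the filter and HSPB1 loses its call without replicate 1 or 3. The count for P5 against P1 iMGCs was 1 without any one of the 3 P1 libraries, because HSPB6 then misses the filter.

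**Figure D4:**
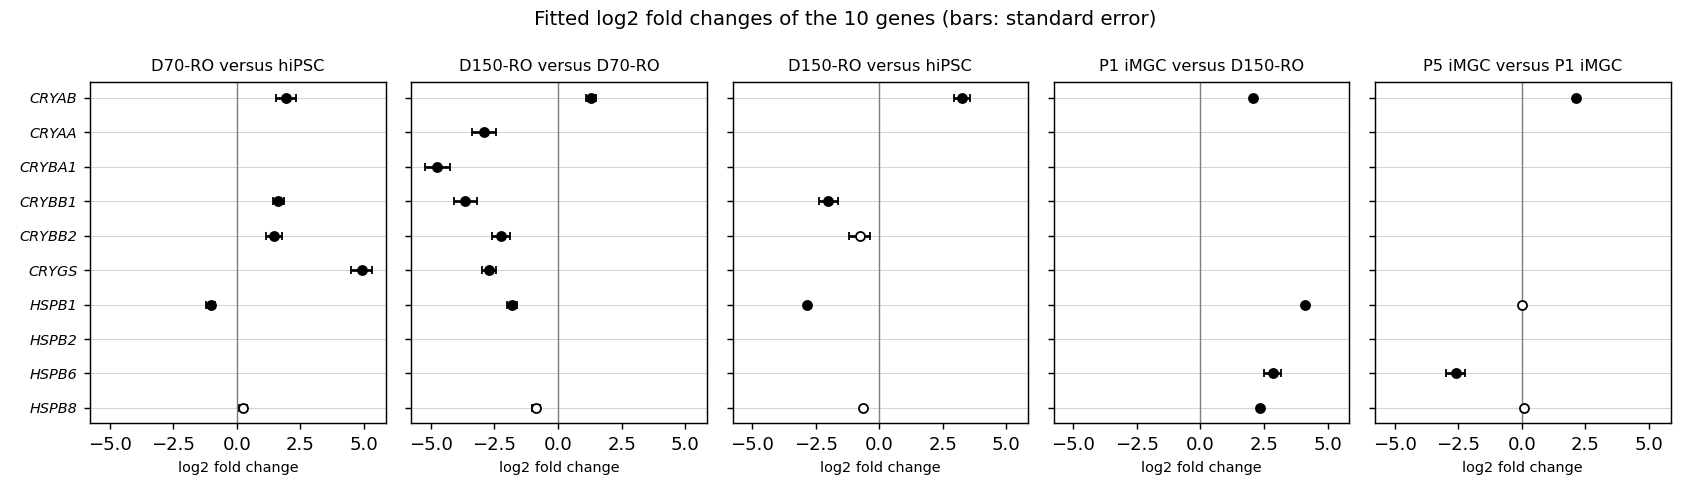
Fitted log2 fold changes of the 10 genes in the 5 comparisons, with standard errors as bars, filled points for calls and open points for differences not called. Genes that missed the filter, and CRYAA and CRYBA1 in D70-ROs against hiPSCs with 3 counts or fewer in hiPSCs, have no point. CRYAB lies to the right of 0 in all 5 panels.

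Both the makeup and the sum of the 10 genes differed between groups. Their summed FPKM was 140.0 to 154 in hiPSCs, 133 to 152 in D70-ROs, 46.3 to 55.3 in D150-ROs, 313 to 314 in P1 iMGCs and 383 to 426 in P5 iMGCs. HSPB1 made up 84.2% to 86.0% of the sum in hiPSCs, 39.7% to 57.2% in D70-ROs, 41.9% to 49.98% in D150-ROs, 78.1% to 79.3% in P1 iMGCs and 57.0% to 59.6% in P5 iMGCs. The 5 lens crystallins made up 26.7% to 46.7% in D70-ROs, 5.96% to 15.1% in D150-ROs and at most 0.337% in iMGCs. With CRYAA2 counted as well, their share lay between 43.0% and 60.8% at D70 and between 15.7% and 26.4% at D150. CRYAB made up 21.5% to 22.3% in D150-ROs, 8.85% to 10.5% in P1 iMGCs and 31.9% to 33.5% in P5 iMGCs.

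The balance between the 2 stress-inducible members followed from this. CRYAB was 0.00262 to 0.0186 times as abundant as HSPB1 in hiPSCs, 0.0505 to 0.0655 times in D70-ROs and 0.442 to 0.519 times in D150-ROs. In P1 iMGCs the ratio was 0.112 to 0.134, and in P5 iMGCs 0.535 to 0.587. The P1 libraries thus lay below both D150-ROs and P5 iMGCs, with no overlap.

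**Figure D5:**
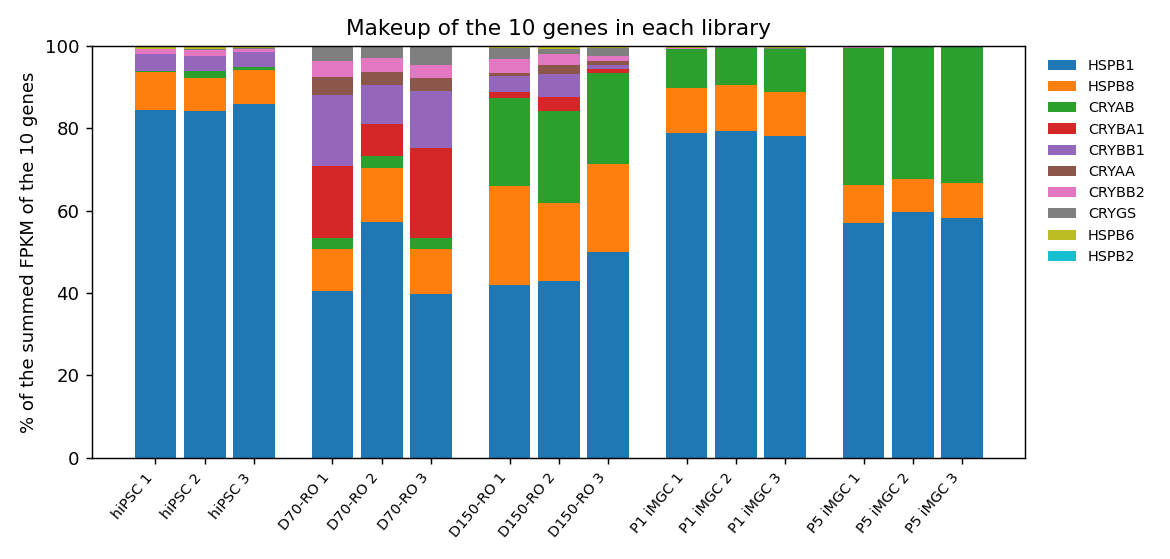
Share of each gene in the summed FPKM of the 10 genes, in percent, 1 stacked bar per library. HSPB1 takes 84.2% to 86.0% in hiPSCs, the lens crystallins reach 26.7% to 46.7% in D70-ROs, and CRYAB takes 31.9% to 33.5% in P5 iMGCs.

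The 8 other crystallin genes did not all share the D70 pattern. Of 5 tested in D70-ROs against hiPSCs, CRYBA2, CRYBA4, CRYBB3 and CRYGC were called higher, and CRYGD was not called, at 2.68 ± 1.00 FPKM in D70-ROs against 3.49 ± 0.75 in hiPSCs (log2 fold change −0.48, SE 0.32). CRYBA2, CRYBB3 and CRYGC passed the filter only through D70-ROs, so their direction was set by it. CRYGB, with 16 counts in hiPSCs and 0 in D70-ROs, and CRYGN, with 11 and 3, missed the filter, as did CRYGA, with 0 and 14. CRYBA4, a beta crystallin whose gene lies 3876 bases from CRYBB1, was above the filter in both groups, at 19.3 ± 3.50 FPKM in D70-ROs against 2.75 ± 0.24 in hiPSCs (log2 fold change 2.67, SE 0.21, adjusted p = 4.63e-07). In D150-ROs against D70-ROs the same 5 genes were tested and called lower, but all 5 passed the filter only with the D70-RO libraries. CRYBA4, at 0.80 to 2.72 FPKM in D150-ROs, had a log2 fold change of −3.74 (SE 0.33). Because of the filter, nothing is read from these counts. In D150-ROs against hiPSCs CRYGD, with 2 counts against 128, and CRYBA4 (−1.07, SE 0.35) were tested and called lower. Both passed the filter only with the hiPSC libraries, in which they had the higher mean, so nothing is read from this count either. None reached the filter in the iMGC comparisons. Adjusted p-values here and below are edgeR's, with the Benjamini-Hochberg method over all genes tested.

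Of 5 other small heat shock genes only HSPB11, an intraflagellar transport protein despite its name, was tested. It was called higher in P1 iMGCs against D150-ROs (log2 fold change 1.24, SE 0.17, adjusted p = 3.77e-06) and in no other comparison. Among 7 crystallin-named enzymes and beta/gamma-domain proteins, 3 were called higher and 2 lower of 7 tested in D70-ROs against hiPSCs. The shares of all tested genes were 22.5% and 21.1%. In D150-ROs against D70-ROs 2 of 6 were called higher and 1 lower, against 16.6% and 16.7% of all tested genes. In D150-ROs against hiPSCs 3 of 7 were called higher and 1 lower, against 29.8% and 29.0%. In P1 iMGCs against D150-ROs 1 of 6 was called higher and 2 lower, against 20.0% and 24.1% of all tested genes. The largest change was that of CRYM, a thyroid hormone-binding protein (log2 fold change −6.02, SE 0.24). CRYM stayed at or under 0.54 FPKM in P1 iMGCs and passed the filter only through D150-ROs, so its direction was set by it.

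The ATP-driven chaperones and partners of small heat shock proteins did not move as one. Of 21 listed, 3 were called higher and 7 lower in D70-ROs against hiPSCs, where the shares of all tested genes were 22.5% and 21.1%. In D150-ROs against D70-ROs 1 of 20 tested was called higher and 2 lower, against 16.6% and 16.7% of all tested genes. In D150-ROs against hiPSCs 2 of 21 were called higher and 8 lower, against 29.8% and 29.0%. In P1 iMGCs against D150-ROs 6 of 20 were called higher and 3 lower, against 20.0% and 24.1%. BAG3, the partner of HSPB8, had 39.0 ± 2.69 FPKM in P1 iMGCs against 14.8 ± 1.11 in D150-ROs (log2 fold change 2.04, SE 0.06, adjusted p = 7.56e-14). The stress-inducible HSP70 genes HSPA1A (−1.32, SE 0.13, adjusted p = 1.46e-07) and HSPA1B (−1.40, SE 0.07, adjusted p = 9.25e-12) were called lower in the same comparison. HSPA1A and HSPA1B are near-identical, so the split of reads between them is uncertain.

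Among 13 heat shock factors and regulators of crystallin genes, 6 of 10 tested were called higher and none lower in D70-ROs against hiPSCs. Of all tested genes, 22.5% were called higher and 21.1% lower there. HSF4 and PROX1 passed the filter in that comparison only through D70-ROs, so their direction was set by it. PAX6, the eye-field factor that acts on crystallin genes, had 362 ± 16.0 FPKM in D70-ROs against 1.75 ± 0.39 in hiPSCs (log2 fold change 7.54, SE 0.17, adjusted p = 1.68e-10), and HSF4, the lens heat shock factor, had 2.48 ± 0.48 against 0.02 ± 0.02, from 108 and 2 counts. In D150-ROs against D70-ROs 2 of 10 were called higher and 3 lower, with PAX6 lower (−1.31, SE 0.11, adjusted p = 1.16e-05) and PROX1, a lens fibre and retinal factor, higher (2.96, SE 0.11, adjusted p = 1.48e-07). Of all tested genes, 16.6% were called higher and 16.7% lower in D150-ROs against D70-ROs. In D150-ROs against hiPSCs 7 of 10 were called higher and 2 lower, against 29.8% and 29.0% of all tested genes. In P1 iMGCs against D150-ROs none of 9 was called higher and 6 were called lower, against 20.0% and 24.1% of all tested genes. Among the 6 were NRL (−9.81, SE 0.19), SOX2 (−6.33, SE 0.12) and PROX1 (−6.80, SE 0.12). These stayed at or under 0.35, 0.68 and 0.18 FPKM in P1 iMGCs. They passed the filter only through D150-ROs, so their direction was set by it. Several other listed genes also passed only through the group in which they were high, so nothing is read from these counts.

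In P5 against P1 iMGCs none of the 31 tested genes of these 5 lists was called with edgeR, DESeq2 or limma. Of all tested genes, 2.92% were called there with edgeR. With edgeR 16 of the 31 had an unadjusted p under 0.05 and 10 an adjusted p under 0.05, all with changes under 2-fold. Among the 10 genes and these lists, only CRYAB and HSPB6 were called between P1 and P5 with edgeR.

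Genes whose pattern was most like that of CRYAB were found by Pearson's correlation of log2(FPKM + 1) over the 15 libraries, among 13915 genes with at least 1 FPKM in 3 libraries. Among the nearest were TCIM (r = 0.983), SLC48A1 (0.975), GALNT15 (0.972) and SIAE (0.970). TCIM had means of 0, 0.36, 1.23, 4.04 and 12.2 FPKM in hiPSCs, D70-ROs, D150-ROs, P1 and P5 iMGCs, and SLC48A1, a haem transporter, had 5.44, 7.58, 9.46, 19.9 and 30.8. For HSPB1 the 5 nearest were PML (r = 0.994), MARVELD1 (0.991), OPN3 (0.990), ANXA6 (0.990) and TPM2 (0.985). TPM2, a tropomyosin of contractile and cultured cells, had means of 123, 37.2, 9.51, 593 and 517 FPKM in the same order. The 15 libraries fall into 5 groups, so these correlations describe the group pattern and carry no p-value.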

How the data were processed

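Poly(A) reads were aligned with HISAT2, and StringTie and RSEM served for assembly and quantification, per the labels and methods. Versions, genome build and annotation are not given in the sources used here. The deposited values are expected counts, not normalized, and FPKM, scaled by the authors for transcript length and mapped reads. The series text names a batch correction without saying which values it touched, so batch and group cannot be told apart. Of a further table, 12 columns were not used, because its iMGC columns name no passage and its D150-RO columns repeat.

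Expected counts (8.22% to 10.1% of them not whole) were rounded and tested 2 groups at a time with edgeR 4.0.16 in R 4.3.3 (quasi-likelihood, TMM, no covariates) over genes with at least 1 FPKM in at least 3 of the libraries compared. Alternatives used DESeq2 1.42.0 and limma 3.58.1. Groups came from the sample labels. The 10 genes and the lists were chosen with earlier results of these data known, and lists are described by counts, with values for at most 4 called genes of largest change per list and comparison. Positions are from GENCODE 29, in which all 19684 identifiers were found, and promoters from RefSeq. Group limits of 3 counts and the 95% intervals cover counting error only. No 2 libraries agreed within sampling noise. The fits were tested on simulated data. Some single-gene values are not reported here.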

Additional observations from a re-analysis of the deposited data

How the results depend on the processing

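Equally numbered replicates are not pairs (deviations from group means correlated between −0.0740 and 0.337), and with the replicate number as a block 7, 7, 3, 4 and 2 members were called in D70-ROs against hiPSCs, D150-ROs against D70-ROs, D150-ROs against hiPSCs, P1 iMGCs against D150-ROs and P5 against P1 iMGCs, the counts without it. Without the filter on low values the count rose from 3 to 8 in D150-ROs against hiPSCs and from 4 to 7 in P1 iMGCs against D150-ROs, and the genes called in P5 against P1 iMGCs from 332 to 694. With limma on log2(FPKM + 1) that comparison had 152 genes and 1 member called. The P5 against P1 difference of HSPB1 lay around 0 and changed sign with all 15 libraries in 1 fit (−0.0045), with limma at pseudocounts 1 and 0.1 (−0.058 in both), and with 1 library left out (−0.027 to 0.078, below 0 without P5 replicate 2 or 3, at −0.027 and −0.026). With a library left out, members called ranged from 3 to 7 in D70-ROs against hiPSCs and 1 to 2 in P5 against P1 iMGCs, and listed genes called from 10 (without D70-RO replicate 2) to 15 in D150-ROs against D70-ROs (16 with all), 12 (without D150-RO replicate 1) to 19 in P1 iMGCs against D150-ROs and 0 to 1 in P5 against P1 iMGCs. The median of all genes moved by −0.58 on the log2 scale with limma in P1 iMGCs against D150-ROs, by 0.32 in D150-ROs against hiPSCs, 0.22 in D150-ROs against D70-ROs and 0.11 in D70-ROs against hiPSCs, and by −0.10 and −0.12 with upper-quartile scaling in D150-ROs against D70-ROs and P1 iMGCs against D150-ROs. CRYAB was called higher in all 5 comparisons under every alternative run, though against hiPSCs the filter, where used, was passed only with the organoid libraries.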
